A study of Sus scrofa with 15 samples.

Results

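Liver mRNA of 8 enzymes that make or use serine, glycine and asparagine was followed in control piglets and in piglets given lipopolysaccharide (LPS), the endotoxin of the outer membrane of Gram-negative bacteria. The members were PHGDH, PSAT1 and PSPH (serine synthesis), SHMT1 and SHMT2 (serine to glycine), MTHFD2 (mitochondrial folate), ASNS (asparagine synthesis) and SDS (serine breakdown). They are 8 of the 31908 genes of the count table, and all 8 passed the filter on low counts, which kept 12774 genes. The family was chosen because PSAT1 was low in every LPS library, so the members' own values below are a description of these libraries and carry no test. The heading under which they were grouped, synthesis enzymes, holds for the serine, glycine and asparagine producers, whereas SDS breaks serine down and MTHFD2 works on the carbon unit that serine releases.

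The study used male crossbred piglets (Duroc x Large White x Landrace) in the growing stage, 6 per group, whose age was not given. The LPS group received 80 ug/kg LPS into the peritoneum, the CON group received sterile saline, and liver was taken 4 h later. Polyadenylated RNA that had not gone through m6A immunoprecipitation (the input fraction) gave 3 CON and 3 LPS libraries. Which piglets gave these libraries, or whether a library pools animals, is not stated, so the spread between libraries may be technical and p-values measure only that spread.

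Liver makes serine from the glycolytic intermediate 3-phosphoglycerate: PHGDH oxidizes it, PSAT1 moves an amino group onto the product and PSPH removes the phosphate. Serine hydroxymethyltransferases then split serine into glycine and a carbon unit carried by folate, SHMT1 in the cytosol and SHMT2 in mitochondria, and that unit feeds purine, thymidylate and methionine synthesis. Serine dehydratase (SDS) instead turns serine into pyruvate, a route to glucose in liver, and in many cell types ATF4, a transcription factor of the amino acid response, drives PHGDH, PSAT1, PSPH, SHMT2, MTHFD2 and ASNS together.

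Total counts ran from 4348478 to 19967417 per library. CON libraries correlated with each other at r = 0.943 to 0.953 (log2 CPM across genes, which are not independent replicates), and LPS replicate 2 stood nearest to them of the LPS libraries, at r = 0.923 to 0.945, against 0.853 to 0.899 for LPS replicate 1 and 0.837 to 0.875 for LPS replicate 3. The acute-phase gene LCN2 was at 2.95, 5.00 and 4.94 CPM (read counts scaled to the TMM-adjusted library size) in CON, and at 114, 29.4 and 129 CPM in LPS replicates 1 to 3, so LPS replicate 2 was again the nearest to CON. The fitted change of each member is therefore also given without LPS replicate 2. For named genes of the related lists below, the edgeR adjusted p without it is given where it alters the edgeR call. DESeq2 values without it are given for some genes only. As that library was picked for lying nearest to CON, leaving it out tends to widen the gap between the groups. The calls and p-values without it are thus no independent support. By edgeR 982 genes were called without it, beside 1 without LPS replicate 1 and 58 without LPS replicate 3. Without CON replicate 1, 2 or 3, 0 genes were called. The hepatocyte marker genes summed to 80605 to 102013 CPM in CON and 67238 to 134871 CPM in LPS. This sum mixes both directions, as 3 of the 9 genes tested had positive and 6 negative log2 fold changes. ALB was at 38011, 21610 and 20307 CPM in CON and 12381, 15104 and 19676 CPM in LPS. FGB, an acute-phase gene, was at 12715, 8098 and 9054 CPM in CON and 21935, 14561 and 44960 CPM in LPS. The sum therefore does not measure hepatocyte content alone.

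PSAT1, the aminotransferase in the middle of the serine route (ENSSSCG00000005287, chromosome 1, 231142625 to 231172363, plus strand), was the member furthest below control. It stood at 119, 146 and 99.96 CPM in CON replicates 1, 2 and 3, and at 3.92, 18.8 and 10.2 CPM in LPS replicates 1, 2 and 3. The highest LPS library lay far under the lowest CON library, and the group means, 121.5 ± 23.2 and 10.97 ± 7.48 CPM (SD, n = 3 each), differed 11.08-fold. The log2 fold change (LPS minus CON) was -3.46 ± 0.52 (SE), the 4th lowest of the 12774 genes tested. LPS replicate 1, with 18 reads against 935 to 1326 in CON, was the lowest, and the exact Poisson 95% interval of those 18 reads was 10.7 to 28.4, which covers counting error only. Without LPS replicate 2 the log2 fold change was -4.05 ± 0.50. In whole liver, fewer cells of a type and less RNA per cell cannot be told apart, for PSAT1 and for every gene below.

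PHGDH, which commits 3-phosphoglycerate to serine (ENSSSCG00000006717, chromosome 4, 101408308 to 101478144, minus strand), did not separate the groups. Its levels were 83.8, 295 and 129 CPM in CON and 53.4, 164 and 56.7 CPM in LPS. LPS replicates 1 and 3 lay below all CON libraries, while LPS replicate 2 lay between them, and the CON libraries themselves differed with a coefficient of variation of 65.6%. The log2 fold change was -0.89 ± 0.57 with all libraries, -1.62 ± 0.51 without LPS replicate 2 and -0.22 without CON replicate 2, the library in which PHGDH was highest.

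PSPH, the phosphatase that releases free serine (ENSSSCG00000007748, chromosome 3, 16877923 to 16907952, plus strand), was low in every library. It gave 4.11, 3.28 and 1.88 CPM in CON and 2.40, 1.80 and 2.87 CPM in LPS, from 11 to 46 reads per library. The groups overlapped, and the log2 fold change of -0.37 ± 0.48 (-0.21 ± 0.54 without LPS replicate 2) was smaller than its error. At 11 reads, the lowest count, the exact Poisson 95% interval was 5.49 to 19.7. A stretch of 146 exon bases, 3.25% of the PSPH exon length, is shared with an unnamed gene on the opposite strand (ENSSSCG00000036659), whose count reached 279 reads, so its part in the PSPH value was not tested. Within the serine route the 3 enzymes thus had unlike values: PSAT1 without overlap and far below CON, PHGDH overlapping with a large spread, and PSPH overlapping at few reads.

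**Figure D1:**
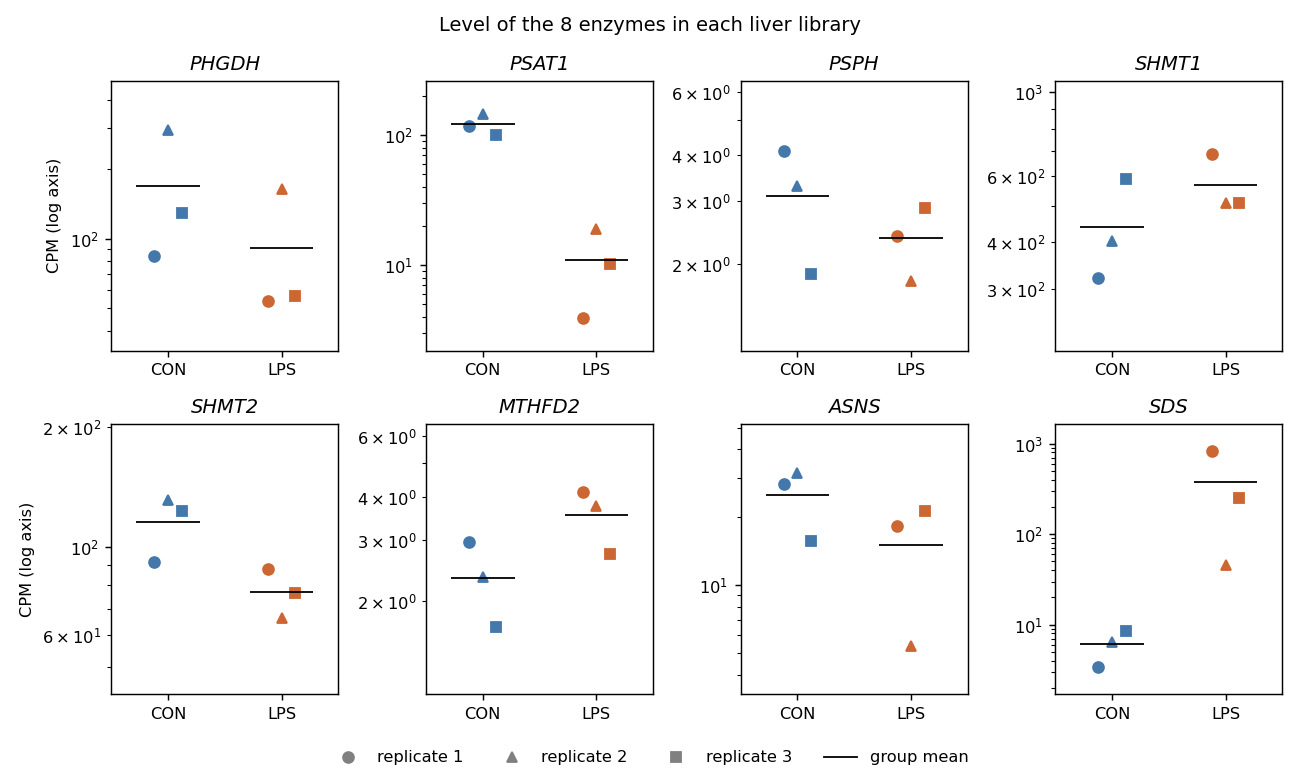
Level of each enzyme in scaled read counts (CPM, log axis, a separate scale per panel) in the 3 CON and 3 LPS libraries, with symbols for replicate numbers and a line at the group mean. PSAT1 in LPS (3.92 to 18.8 CPM) sat below CON (99.96 to 146 CPM), SDS in LPS (46.0 to 831 CPM) sat above CON (3.40 to 8.60 CPM), SHMT2 was separated by a narrow gap, and the other 5 enzymes overlapped.

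SHMT1, the cytosolic enzyme that exchanges serine and glycine (ENSSSCG00000036208, chromosome 12, 60414446 to 60435450, plus strand), had the highest mean level per length of the members in control liver. It was at 321, 403 and 590 CPM in CON and 687, 508 and 507 CPM in LPS, so the highest CON library exceeded LPS replicates 2 and 3. The log2 fold change was 0.37 ± 0.34, and 0.45 ± 0.38 without LPS replicate 2. SMCR8 shares 178 exon bases, 4.40% of the SHMT1 exon length, on the opposite strand, with at most 574 reads in a library. The mitochondrial counterpart SHMT2 (ENSSSCG00000037077, chromosome 5, 22532894 to 22540321, plus strand) was at 91.4, 131 and 123 CPM in CON and 87.9, 66.4 and 76.7 CPM in LPS. Every LPS library lay below every CON library, though LPS replicate 1 lay close under CON replicate 1. On the TPM scale (counts scaled to exon length) the groups overlapped, with LPS replicate 1 at 61.2 TPM above CON replicates 1 (56.8 TPM) and 3 (52.7 TPM). The SHMT2 log2 fold change was -0.58 ± 0.30, and -0.48 ± 0.34 without LPS replicate 2. A stretch of 238 exon bases, 6.90% of the SHMT2 exon length, is shared with NDUFA4L2 on the opposite strand, whose count reached at most 53 reads in a library.

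MTHFD2, the mitochondrial folate dehydrogenase that is scarce in most adult tissues and abundant in dividing cells (ENSSSCG00000008289, chromosome 3, 68819612 to 68853067, minus strand), was at the low end in both groups. It gave 2.95, 2.34 and 1.68 CPM in CON and 4.14, 3.76 and 2.73 CPM in LPS, from 15 to 40 reads. LPS replicate 3 lay below CON replicate 1, so the groups overlapped, and the log2 fold change was 0.59 ± 0.45 (0.53 ± 0.53 without LPS replicate 2). MOB1A shares 185 exon bases, 5.38% of the MTHFD2 exon length, on the opposite strand. Its count reached 267 reads in a library, more than any MTHFD2 count, and its part in the MTHFD2 value was not tested.

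ASNS, which makes asparagine from aspartate and glutamine (ENSSSCG00000015340, chromosome 9, 77318213 to 77509020, minus strand), was set mainly by 1 library. It stood at 28.0, 31.6 and 15.7 CPM in CON and at 18.3, 5.40 and 21.4 CPM in LPS. LPS replicate 2, with 33 reads, was the only LPS library below all CON libraries. The log2 fold change of -0.73 ± 0.50 became -0.33 ± 0.39 without it. Among the LPS libraries, replicate 2 thus held the most PSAT1 and the least ASNS.

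SDS, which removes the amino group of serine to give pyruvate (ENSSSCG00000036865, chromosome 14, 38503930 to 38513880, plus strand), was the member furthest above control. It was at 3.40, 6.41 and 8.60 CPM in CON and at 831, 46.0 and 253 CPM in LPS. All LPS libraries exceeded all CON libraries, yet they differed among themselves with a coefficient of variation of 108.0%. The means were 6.13 ± 2.61 and 377 ± 407 CPM (SD, n = 3 each), a 61.4-fold difference that leans on LPS replicate 1. SDS had a log2 fold change of 5.94 ± 1.01, the 12th highest of the genes tested. It was 6.46 ± 0.61 without LPS replicate 2 and 4.63 without LPS replicate 1. The neighbouring gene SDSL, which encodes a serine dehydratase-like enzyme, lies 19774 bases away on the same chromosome, and neither gene overlaps another.

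**Figure D2:**
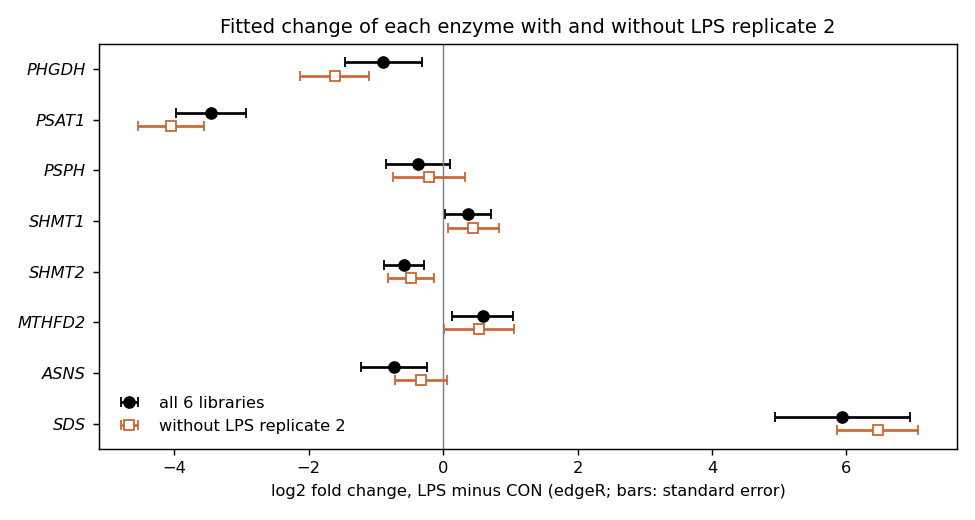
Fitted log2 fold change (LPS minus CON, edgeR) of each enzyme with its standard error as a bar, from all 6 libraries (filled circles) and without LPS replicate 2 (open squares). PSAT1 (-3.46 and -4.05) and SDS (5.94 and 6.46) lay far from 0 on opposite sides, and PHGDH moved most among the others, from -0.89 to -1.62.

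Of the 8 members, 3 had a log2 fold change above 0 and 5 below, with a median of -0.48, beside a median of 0.01 and shares of 50.5% above and 49.5% below over all genes tested. A gene was called where the Benjamini-Hochberg adjusted p of the edgeR quasi-likelihood test was below 0.05 and the fold over 1.5. That called 0 members, beside 0.0548% of genes higher and 0% lower. DESeq2 called SDS among 2.02% of genes higher in LPS and PSAT1 among 1.15% lower, and limma-voom called 0 members higher, beside 0.0313% of genes, and PSAT1 lower, beside 0.0157%. At an unadjusted edgeR p below 0.05 the same pair stood among 6.18% of genes higher and 6.33% lower. Without LPS replicate 2, edgeR called SDS among 3.76% higher and PSAT1 among 3.45% lower, and DESeq2 called SDS among 5.86% higher and both PHGDH and PSAT1 among 5.5% lower. The groups did not overlap for SDS, as for 6.52% of genes with all LPS libraries higher, and for PSAT1 and SHMT2, as for 9.8% of genes with all LPS libraries lower. Since the family was chosen on this contrast, nothing is read from these counts.

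Levels were compared between the enzymes per length, as length-scaled counts (TPM) computed from the counts and the exon lengths. In CON the order of the mean TPM was SHMT1 (207 ± 32.9), PHGDH (117 ± 96.3), PSAT1 (105 ± 41.3) and SHMT2 (66.1 ± 19.8), followed by ASNS (14.1 ± 7.08) and SDS (6.77 ± 2.31), and then PSPH (1.43 ± 0.71) and MTHFD2 (1.39 ± 0.59; SD, n = 3). Neighbours in this order overlapped except at 2 steps, between SHMT2 and ASNS and between SDS and PSPH. Control liver thus held the mRNA of its serine enzymes at unequal levels, with PSPH transcripts far scarcer than those of the preceding steps, PHGDH and PSAT1.

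In LPS the order of the mean TPM opened with SDS (465 ± 603) and SHMT1 (280 ± 129), which overlapped. PHGDH (61.8 ± 52.0) and SHMT2 (43.6 ± 17.2) came next, then PSAT1 (8.96 ± 7.62) and ASNS (7.35 ± 4.32), and last MTHFD2 (2.10 ± 1.01) and PSPH (0.981 ± 0.268). The members of each pair overlapped, and SDS, whose LPS libraries ran from 59.5 to 1158 TPM, also overlapped PHGDH and SHMT2. The LPS ranges of SHMT1 and PHGDH did not overlap, nor did those of SHMT2 and PSAT1 or of ASNS and MTHFD2. By the mean, SDS held position 6 in CON and 1 in LPS, where LPS replicate 1 set most of the mean, and PSAT1 held positions 3 and 5. In LPS replicate 2, SDS at 59.5 TPM lay below SHMT1 (281 TPM) and PHGDH (121 TPM). By the mean, SHMT1 was among the highest in both groups and PSPH and MTHFD2 were the lowest.

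Ratios of reads within a library do not depend on the scaling between libraries. For each PSAT1 read there were 0.0287, 0.0439 and 0.0861 SDS reads in CON and 212, 2.44 and 24.9 in LPS. Reads for serine breakdown exceeded those for PSAT1 in all LPS libraries and in no CON library. PHGDH gave 0.707, 2.02 and 1.29 reads per PSAT1 read in CON and 13.6, 8.73 and 5.57 in LPS, also without overlap, so PSAT1 was low relative to the enzyme before it. Since the family was chosen on low PSAT1 in LPS, the separation of both PSAT1 ratios follows in part from that choice. The balance of PHGDH to PSPH overlapped between the groups, at 20.4, 89.9 and 68.8 in CON and 22.3, 91.3 and 19.8 in LPS.

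The cytosolic to mitochondrial balance of serine hydroxymethyltransferase also separated the groups. SHMT2 alone was already below CON in every LPS library, as were 9.8% of genes. The share of all gene pairs whose ratio separates was not computed, so the ratios here describe these libraries only. SHMT1 gave 3.51, 3.08 and 4.79 reads per SHMT2 read in CON and 7.82, 7.65 and 6.61 in LPS. LPS replicate 2 sat with the other LPS libraries here, unlike in PHGDH or SDS. For the trifunctional cytosolic folate enzyme MTHFD1 against mitochondrial MTHFD2 the ratio of reads was 73.4, 95.4 and 111 in CON and 7.63, 19.9 and 15.2 in LPS. SDS gave 0.107, 0.165 and 0.155 reads per SDSL read in CON and 4.92, 0.432 and 3.14 in LPS. SDSL reads were thus the more numerous of the pair in CON and in LPS replicate 2, and SDS reads in LPS replicates 1 and 3.

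**Figure D3:**
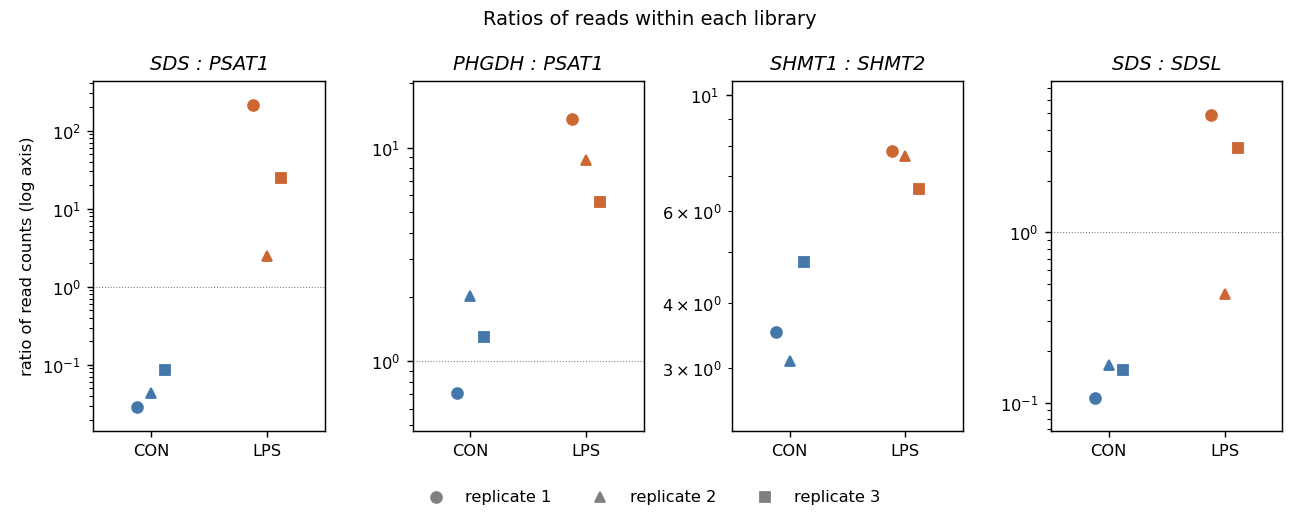
Ratio of read counts of gene pairs within each library (log axis, a separate scale per panel), with symbols for replicate numbers and a dotted line at a ratio of 1. SDS to PSAT1, PHGDH to PSAT1, SHMT1 to SHMT2 and SDS to SDSL were all higher in the 3 LPS libraries than in the 3 CON libraries, by the widest margin for SDS to PSAT1. Both ratios to PSAT1 lean on the choice of the family by low PSAT1 in LPS. PHGDH to PSPH, which overlapped between the groups, is not drawn.

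The genes whose log2 CPM followed PSAT1 most closely over the 6 libraries, of 10748 compared, were MSRA (Pearson r = 0.995), MTHFD1 (0.994), ABCA4 (0.993), PECR (0.993) and PDHB (0.992). The 6 points fall into the 2 groups that chose PSAT1, and share their depth and scaling, so these values describe likeness only. All 5 genes had negative log2 fold changes, from -0.65 for MSRA, a methionine sulfoxide reductase, to -2.08 for MTHFD1. Among the members, r with PSAT1 was 0.68 for PHGDH, 0.67 for SHMT2, 0.36 for ASNS, 0.35 for PSPH, -0.69 for SHMT1, -0.71 for MTHFD2 and -0.98 for SDS. The genes most like ASNS were ERI1 (0.986), TRMT11 (0.982), AFG1L (0.974), DNASE1 (0.968) and SLC35A1 (0.967), and among the members PSPH came nearest at 0.82. Each of these 5 genes was lowest in LPS replicate 2, as ASNS was, which follows from their choice by closeness to ASNS.

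Around the 8 enzymes, 9 lists of related genes held 128 genes that could be tested of 150 listed. The edgeR test across all genes called 0 of the 128, as did limma-voom, while 14 (10.9%) were higher and 17 (13.3%) lower at an unadjusted p below 0.05, beside 6.18% and 6.33% of all genes. DESeq2 gave a value for 125 of them and called 7 higher (AGXT, ARG1, CTH, GNMT, HAL, SDSL and SLC38A1) and 3 lower (GRHPR, MAT1A and MTHFD1), or 5.6% and 2.4% beside 2.02% and 1.15% of all genes. When LPS replicate 2 was left out, 129 list genes were tested by edgeR, of which 7 (5.43%) rose and 17 (13.2%) fell, beside 3.76% and 3.45% of all genes. Of the genes that DESeq2 called with all libraries, CTH lost its call by DESeq2 when LPS replicate 2 was left out. The median log2 fold change of the 128 was -0.14.

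Folate one-carbon genes, which carry the unit taken from serine, lay mostly below control. Of 15 tested, 12 had a negative log2 fold change, with a median of -0.65, beside 49.5% of all genes below 0. In 4 of the 15 all LPS libraries lay below CON, beside 9.8% of all genes, edgeR called 0 with all libraries, and 4 were called lower without LPS replicate 2, beside 3.45% of all genes. MTHFD1, which interconverts folate forms in the cytosol, was at 216, 224 and 186 CPM in CON and 31.6, 74.9 and 41.6 CPM in LPS. Its log2 fold change was -2.08 ± 0.38, with an adjusted p of 0.0933 by edgeR, 9.1e-05 by DESeq2 and 0.00411 by edgeR without LPS replicate 2. ALDH1L2, the mitochondrial formyl-folate dehydrogenase, was at 18.4, 19.5 and 14.4 CPM in CON and 5.67, 10.8 and 5.60 CPM in LPS (log2 fold change -1.25 ± 0.38, edgeR adjusted p = 0.242, and 0.0322 without LPS replicate 2). GGH, which trims the glutamate tail of folate, had a log2 fold change of -0.75 ± 0.34 (edgeR adjusted p = 0.403).

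Genes that cleave glycine or dispose of serine, glycine and glyoxylate had values on both sides of 0, with 4 positive and 11 negative of 15 and a median of -0.60. AGXT, which turns glyoxylate into glycine, was at 192, 381 and 273 CPM in CON and 1098, 1211 and 997 CPM in LPS. The 3 LPS libraries were close together and all above CON, at a log2 fold change of 1.97 ± 0.35 with an adjusted p of 0.0902 by edgeR, 3.4e-05 by DESeq2 and 0.0161 by edgeR without LPS replicate 2. SDSL was at 31.8, 38.7 and 55.7 CPM in CON and 169, 106 and 80.7 CPM in LPS, at 1.49 ± 0.38 (adjusted p = 0.195 by edgeR, 0.0163 by DESeq2 and 0.0395 by edgeR without LPS replicate 2). GRHPR, which reduces glyoxylate and hydroxypyruvate, lay the other way, at 116, 185 and 143 CPM in CON and 42.1, 83.1 and 33.4 CPM in LPS (-1.49 ± 0.40, adjusted p = 0.218 by edgeR, 0.0322 by DESeq2 and 0.0131 by edgeR without LPS replicate 2).

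The methionine cycle receives carbon units from folate and, through transsulfuration, spends serine on cysteine. Of its 11 genes tested, 4 had positive and 7 negative log2 fold changes (median -0.07). MAT1A, the liver methionine adenosyltransferase, was at 752, 1173 and 700 CPM in CON and 226, 201 and 78.9 CPM in LPS, with all LPS libraries below CON. Its log2 fold change was -2.38 ± 0.45, with an adjusted p of 0.0982 by edgeR, 8.7e-05 by DESeq2 and 0.017 by edgeR without LPS replicate 2. CTH, which releases cysteine from cystathionine, was at 28.8, 57.6 and 25.2 CPM in CON and 110, 159 and 60.8 CPM in LPS (1.57 ± 0.45, adjusted p = 0.221 by edgeR and 0.0317 by DESeq2). Without LPS replicate 2, the library in which CTH was highest, its log2 fold change was 1.20 and the adjusted p was 0.113 by edgeR and 0.0651 by DESeq2. MTR, the methionine synthase that uses methyl-folate, had -1.14 ± 0.41 (edgeR adjusted p = 0.312, and 0.0486 without LPS replicate 2).

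**Figure D4:**
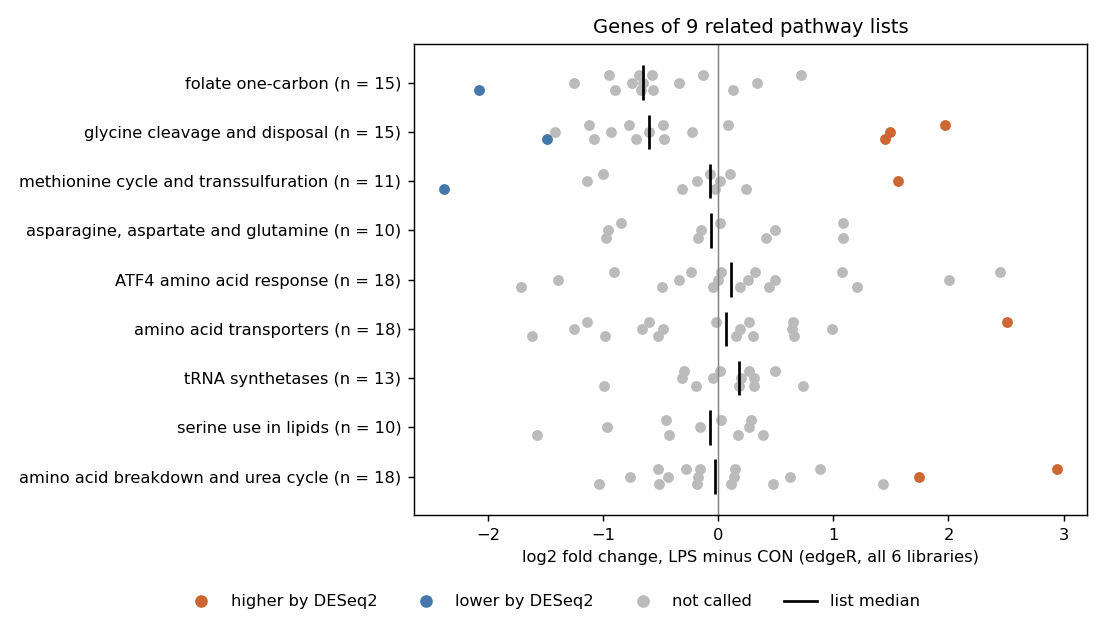
Log2 fold change (LPS minus CON, edgeR, all 6 libraries) of each tested gene of the 9 related lists, with a line at each list's median, and colour for the genes that DESeq2 called higher or lower. The folate and glycine lists had medians of -0.65 and -0.60, and the other 7 had medians between -0.07 and 0.18.

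Genes of asparagine, aspartate and glutamine metabolism were evenly divided, 5 positive and 5 negative of 10, with a median of -0.06 that turned to 0.06 without LPS replicate 2. GOT1, the cytosolic aspartate aminotransferase, was at 26.2, 34.4 and 33.5 CPM in CON and 88.7, 72.6 and 38.1 CPM in LPS (log2 fold change 1.08 ± 0.36, edgeR adjusted p = 0.272). Mitochondrial GOT2 had -0.85 ± 0.36 (edgeR adjusted p = 0.369). GLUD1, the glutamate dehydrogenase, was at 492, 485 and 385 CPM in CON and 172, 309 and 221 CPM in LPS (-0.96 ± 0.33, edgeR adjusted p = 0.290). Without LPS replicate 2, DESeq2 called both GLUD1 (adjusted p = 0.0164) and GOT2 (0.0426) lower, while edgeR called neither (0.0661 and 0.0744).

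Genes of the ATF4 amino acid response did not share a direction, with 10 positive and 8 negative of 18 and a median of 0.11, which turned to -0.03 when libraries were scaled by total counts alone. That scaling moved the median of all genes from 0.01 to -0.12, so the list was above the general median under both. FGF21, a liver hormone of nutrient stress, was at 66.8, 71.2 and 69.1 CPM in CON and 23.1, 45.3 and 10.7 CPM in LPS (-1.40 ± 0.47, edgeR adjusted p = 0.273, and 0.0156 without LPS replicate 2). ATF5, a related transcription factor, was at 1451, 2967 and 2228 CPM in CON and 468, 1367 and 189 CPM in LPS (-1.72 ± 0.64, edgeR adjusted p = 0.330, and 0.0131 without LPS replicate 2). CEBPB, a transcription factor of the acute phase, was at 167, 338 and 236 CPM in CON and 738, 228 and 741 CPM in LPS, with LPS replicate 2 among the CON libraries (1.20 ± 0.48, edgeR adjusted p = 0.353, and 0.0307 without that library). ATF4 itself was not paired with an identifier here.

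Amino acid transporters had 9 positive and 9 negative values of 18, with a median of 0.07 that turned to -0.10 under total counts and to -0.22 without LPS replicate 2. SLC38A1, a sodium-coupled carrier of small neutral amino acids, was at 6.35, 6.09 and 8.21 CPM in CON and 23.3, 17.8 and 76.1 CPM in LPS (2.51 ± 0.55, adjusted p = 0.129 by edgeR, 0.000512 by DESeq2 and 0.00654 by edgeR without LPS replicate 2). SFXN1, which carries serine into mitochondria, was at 53.6, 36.6 and 36.0 CPM in CON and 12.0, 27.3 and 13.6 CPM in LPS (-1.26 ± 0.39, edgeR adjusted p = 0.247, and 0.0208 without LPS replicate 2). Its relative SFXN2 had -1.14 ± 0.39 (edgeR adjusted p = 0.281). Both carriers were below CON in every LPS library on the CPM scale, as were 9.8% of all genes.

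The tRNA synthetases, which load amino acids for translation, had 8 positive and 5 negative values of 13 (median 0.18). GARS1, the glycine enzyme, was at 155, 228 and 101 CPM in CON and 79.8, 86.2 and 77.5 CPM in LPS (-0.99 ± 0.35, edgeR adjusted p = 0.305). VARS1 (valine) had 0.73 ± 0.34 (edgeR adjusted p = 0.419) and CARS1 (cysteine) 0.49 ± 0.43 (edgeR adjusted p = 0.679).

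Genes that spend serine on lipids were evenly divided, 5 positive and 5 negative of 10, with a median of -0.07. ORMDL3, a regulator of the serine palmitoyltransferase that opens sphingolipid synthesis, was at 139, 146 and 120 CPM in CON and 22.0, 103 and 11.6 CPM in LPS, with LPS replicate 2 close to CON (-1.57 ± 0.69, edgeR adjusted p = 0.391, and 0.00295 without that library). SERINC2 had -0.97 ± 0.53 (edgeR adjusted p = 0.494, and 0.0137 without LPS replicate 2), and PTDSS1, a phosphatidylserine synthase, 0.39 ± 0.30 (edgeR adjusted p = 0.630).

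Amino acid breakdown and the urea cycle, the routes SDS belongs with in liver, had 9 positive and 9 negative values of 18 (median -0.02). HAL, the histidine ammonia-lyase, was at 35.7, 69.8 and 60.1 CPM in CON and 505, 146 and 620 CPM in LPS (2.94 ± 0.54, adjusted p = 0.0937 by edgeR, 4e-06 by DESeq2 and 0.00138 by edgeR without LPS replicate 2). ARG1, the liver arginase, was at 285, 467 and 649 CPM in CON and 1107, 956 and 2639 CPM in LPS (1.75 ± 0.48, adjusted p = 0.218 by edgeR, 0.0148 by DESeq2 and 0.0284 by edgeR without LPS replicate 2). NAGS, which makes the activator of the urea cycle, was at 27.6, 33.7 and 83.4 CPM in CON and 184, 88.0 and 119 CPM in LPS (1.43 ± 0.48, adjusted p = 0.268 by edgeR and 0.079 by DESeq2). Without LPS replicate 2 the adjusted p of NAGS was 0.0584 by edgeR and 0.0109 by DESeq2. In this list 4 of the 18 genes, HAL, ARG1, NAGS and ASL, were above CON in every LPS library, beside 6.52% of all genes. Another 3 were below CON in every LPS library, beside 9.8% of all genes. These 3, named after their values were seen, were OTC, a urea cycle enzyme (-1.03 ± 0.46, edgeR adjusted p = 0.400), G6PC1, which releases glucose (-0.76 ± 0.37, 0.447), and FAH, of tyrosine breakdown (-0.52 ± 0.32, 0.534).

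Markers of other cells were read beside the members. The summed level of the 7 neutrophil genes with an identifier, of 10 listed, was 13.2 to 24.0 CPM in CON and 171, 74.8 and 316 CPM in LPS replicates 1 to 3, with MMP8 at 0 in CON. The filter left 5 of them to be tested, all with positive log2 fold changes, and edgeR called S100A8. SDS and PSAT1 were nearest to their CON levels in LPS replicate 2, the LPS library with the lowest neutrophil sum. They were furthest from CON in LPS replicate 1 (SDS 831 and PSAT1 3.92 CPM). The neutrophil sum was instead highest in LPS replicate 3 (SDS 253 and PSAT1 10.2 CPM). The part of neutrophil RNA in their values was not tested. Kupffer cell or macrophage genes summed to 1946 to 3208 CPM in CON and 1364 to 2271 CPM in LPS, T or NK cell genes to 125 to 150 and 58.4 to 135 CPM, endothelial genes to 259 to 569 and 210 to 359 CPM, and cholangiocyte or stellate genes to 772 to 1144 and 562 to 1261 CPM. These 4 sums overlapped between the groups, but a sum leans on its most abundant genes. Log2 fold changes were negative for 9 of 9 Kupffer cell or macrophage genes tested, 6 of 7 T or NK cell genes and 7 of 8 endothelial genes. They were negative for 3 of 9 cholangiocyte or stellate genes, beside 49.5% of all genes, and edgeR called 0 genes of these lists. The summed level of periportal hepatocyte genes, from the zone where serine breakdown is strong, overlapped between the groups. This sum was 4795 to 8283 CPM in CON and 4881 to 9278 CPM in LPS. Within it PCK1 was at 2395, 4436 and 2496 CPM in CON and 848, 3067 and 6383 CPM in LPS. Of the 5 periportal genes tested, 4 had positive and 1 negative log2 fold changes. Only HAL was above CON in every LPS library, beside 6.52% of all genes. Pericentral genes summed to 1132 to 1355 CPM in CON and 589 to 1105 CPM in LPS, without overlap. That sum was mostly CYP2E1, at 970, 1028 and 1047 CPM in CON and 553, 829 and 444 CPM in LPS. Of the 6 pericentral genes tested, 4 had negative and 2 positive log2 fold changes (OAT 0.48 and LGR5 1.08). The gap thus describes CYP2E1 more than the zone.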

How the data were processed

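The authors deposited a table of whole-number read counts per gene for the input fraction of piglet liver, 3 CON and 3 LPS columns, made from directional libraries. The submitters' processing notes name cutadapt 1.9.3, HISAT2 and the genome builds galGal6 and hg38, neither of them pig. The counter, pig annotation release and strand setting are not stated in those sources, and without strand, reads of genes on opposite strands cannot be told apart. Of 13830 gene symbols compared, 98.9% overlapped the RefSeq Sscrofa11.1 gene of the same symbol. Gene symbols were found for 15029 of 31908 identifiers. The m6A immunoprecipitated libraries were not analysed here. CON replicates 1 and 2 have 2 sequencing entries each and 1 count column each, placed by group and header number.

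Counts were filtered (filterByExpr of edgeR, minimum count 10), scaled by TMM and tested with edgeR 4.0.16 (robust quasi-likelihood) in R 4.3.3, with Benjamini-Hochberg adjustment over 12774 genes. DESeq2 1.42.0 and limma 3.58.1 (voom) were alternatives, beside other scalings, other filters, a replicate block and leaving out each library. Steps were tested on simulated data. Total counts of 4348478 to 19967417 set the precision, and intervals are exact Poisson. For edgeR, standard errors were obtained from each fold change and its F statistic (absolute log2 value over root F), and correlations use log2 CPM with a prior count of 2. Named genes were all members, up to 3 genes per related list with the lowest edgeR p, every called gene of a list, and the 5 genes most correlated with PSAT1 and with ASNS. The members and lists were chosen with earlier results of these data known.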

Additional observations from a re-analysis of the deposited data

How the results depend on the processing

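The 8 members kept the sign of their log2 fold change in all 14 alternatives, between -4.05 and -3.07 for PSAT1 and between 4.63 and 6.52 for SDS. The number of genes called by edgeR with all libraries, 7, was far less stable: it was 12 with total counts, 885 without the filter, 0 with at least 10 counts in every library, 404 by DESeq2, 0 to 982 leaving out each library, highest without LPS replicate 2, and 1549 by DESeq2 without LPS replicate 2, an alternative added after the data were seen. Of the related lists, 0 genes were called with all libraries, 19 without the filter, 10 by DESeq2, 0 to 24 leaving out each library and 35 by DESeq2 without LPS replicate 2. The cause was not tested. TRMT11 (-0.28) and DNASE1 (-0.17) reversed sign without LPS replicate 2, to 0.0109 and 0.0485 by edgeR and to 0.0578 and 0.0973 by DESeq2, and ranged from -0.5315 to 0.0109 and from -0.2978 to 0.0485 leaving out each library. With the replicate number as a block, 51 genes were called, PSAT1 among the 0.0705% lower, and 1 list gene, MAT1A. Deviations of same-numbered libraries correlated at -0.239, 0.2186 and 0.0289, and not every library matched its own number best. With so few libraries per group these values cannot tell whether same-numbered libraries share more than a number, and the labels do not say. PSPH and MTHFD2 had only 11 to 46 reads per library.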

Other observations

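The following genes were chosen after their values were seen. GNMT, which methylates glycine, was at 86.4, 194 and 201 CPM in CON and 623, 439 and 253 CPM in LPS (log2 fold change 1.45 ± 0.45, edgeR adjusted p = 0.246), and it was higher in 3 of 3 LPS libraries, as AGXT was. MAT2A, the methionine adenosyltransferase of most tissues outside adult liver, was at 44.2, 24.4 and 33.7 CPM in CON and 19.8, 19.8 and 63.4 CPM in LPS, with a log2 fold change of 0.02 ± 0.48 (edgeR adjusted p = 0.994), beside -2.38 for MAT1A. The study itself reported higher MAT2A mRNA, by quantitative PCR, and higher MAT2A protein in livers of its LPS group. Those are other measures, and the wide spread of the LPS libraries here does not show that MAT2A was unchanged. PDXK, the kinase that makes the pyridoxal phosphate cofactor used by PSAT1, the hydroxymethyltransferases and SDS alike, was at 29.8, 58.7 and 55.9 CPM in CON and 346, 114 and 237 CPM in LPS. Its log2 fold change was 2.27 ± 0.46 (edgeR adjusted p = 0.104), and its log2 CPM correlated with that of SDS at r = 0.989 over the 6 libraries, the 4th highest of 10748 genes after STK24, GALNT2 and MRPL20. The level of PDXK had the same order over the LPS libraries as that of SDS, replicate 1 highest and replicate 2 lowest. STK24, GALNT2 and MRPL20 had that order too, and it follows from the closeness to SDS that these genes share. The 6 points fall into the 2 groups, so these values describe likeness only, and a link through the cofactor was not tested.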
